A study of Danio rerio with 32 samples.

Results

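The cathepsin genes were followed across 8 groups of zebrafish larvae. They were chosen by name: a row of the count table was taken if its Entrez gene ID carried a zebrafish symbol that began with cts and went on with a, b, c, d, f, h, k, l, o, s, v or z. The rule found 15 of the 16825 rows, and 14 of them were among the 14108 rows with enough counts to be tested. The rule used no measured value. The 15 rows were ctsla and ctsl.1 (cathepsin L), ctsba and ctsbb (cathepsin B), ctsf, ctsc, ctsh, ctsz, ctso, ctsk, ctss1, ctss2.1 and ctss2.2 (cathepsin S), ctsd and ctsa. A further 3 symbols that the rule covers, ctslb, ctslb.4 and ctsll, were not analysed here.

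Each of the 8 groups held 4 pools, and each pool held 10 whole larvae at 7 days post fertilization (dpf). In Bach1 DKO crkeap1a/b larvae, both bach1 genes (bach1a and bach1b) were mutated in the line, and keap1a and keap1b were edited with CRISPR/Cas9 at the single-cell stage. Bach1 DKO larvae carried the bach1a and bach1b mutations alone. Nrf2 KO crkeap1a/b larvae carried a mutation of nfe2l2a, the gene for Nrf2a, together with keap1a and keap1b editing, and Nrf2 KO larvae carried the nfe2l2a mutation alone. The crkeap1a/b, crkeap1a and crkeap1b larvae were edited at both keap1 genes or at a single one in otherwise wild-type animals, and WT larvae were not edited. The edited animals are crispants, so each is a mosaic of cells with and without mutations. The Bach1 DKO line was made in fish with gstp1:EGFP and lf:NLS-mcherry transgenes, and keap1 crispants were first made in fish with gstp1:EGFP, but the labels do not say which transgenes the sequenced pools carried. Keap1 marks the transcription factor Nrf2 for degradation, and Bach1 is a repressor that can bind some of the same DNA elements. The design asks how loss of Keap1 changes transcripts, and whether Bach1 or Nrf2 alters that change.

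Cathepsins are proteases that mostly work inside lysosomes, the acidic compartments in which cells break down proteins taken up or discarded. Most of those measured here are papain-type cysteine proteases. Cathepsin D is instead an aspartic protease, and cathepsin A is a serine carboxypeptidase. They are made as inactive precursors, are sorted to lysosomes in part by mannose 6-phosphate receptors, and are held in check by cystatins. In mammals, transcription of many lysosomal genes is driven by the MiT/TFE factors, which include TFEB and TFE3.

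Transcripts were counted with a 3′ kit, which reads the end of each polyadenylated RNA, so counts do not scale with transcript length. Values are given as CPM, counts scaled to a common total over the rows with a gene ID and adjusted by TMM factors, which correct for differences in library composition. Total counts per pool were between 3464165 and 4712448, of which 1976901 to 2804487 lay in rows with a gene ID. A total of 3 counts, the limit that a count of 0 allows, corresponded to between 0.959 and 1.95 CPM per pool, and this covers counting error only. The edited genes themselves were not lower in the edited pools throughout: keap1a averaged 117 ± 13.1 CPM in Bach1 DKO crkeap1a/b pools and 29.2 ± 3.13 CPM in Bach1 DKO pools (SD, n = 4 each), and 3′ reads do not show whether a coding sequence was mutated. Pools spread more widely in crkeap1b and crkeap1a larvae (within-group SD of log2 CPM 0.56 and 0.52) than in the other 6 groups (0.33 to 0.40). Controls were clutch siblings according to the study's methods. Labels number the 4 pools of a group, called replicates here, but do not say which pools share a clutch, so p-values measure the spread between pools.

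Summed over the 15 genes, cathepsin transcripts were most abundant in Bach1 DKO crkeap1a/b larvae. The sum was 2900 ± 162 CPM in Bach1 DKO crkeap1a/b pools and 1429 ± 140 CPM in Bach1 DKO pools (SD, n = 4 each). It was 2169 ± 115 CPM in Nrf2 KO crkeap1a/b pools and 1174 ± 97.2 CPM in Nrf2 KO pools. In both mutant lines the lowest edited pool stood above the highest unedited pool. In larvae without a mutant line the groups overlapped, with 1818 ± 176 CPM in crkeap1a/b, 1782 ± 294 CPM in crkeap1a, 1588 ± 426 CPM in crkeap1b and 1516 ± 307 CPM in WT pools. These sums are given as a description without a test.

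**Figure D1:**
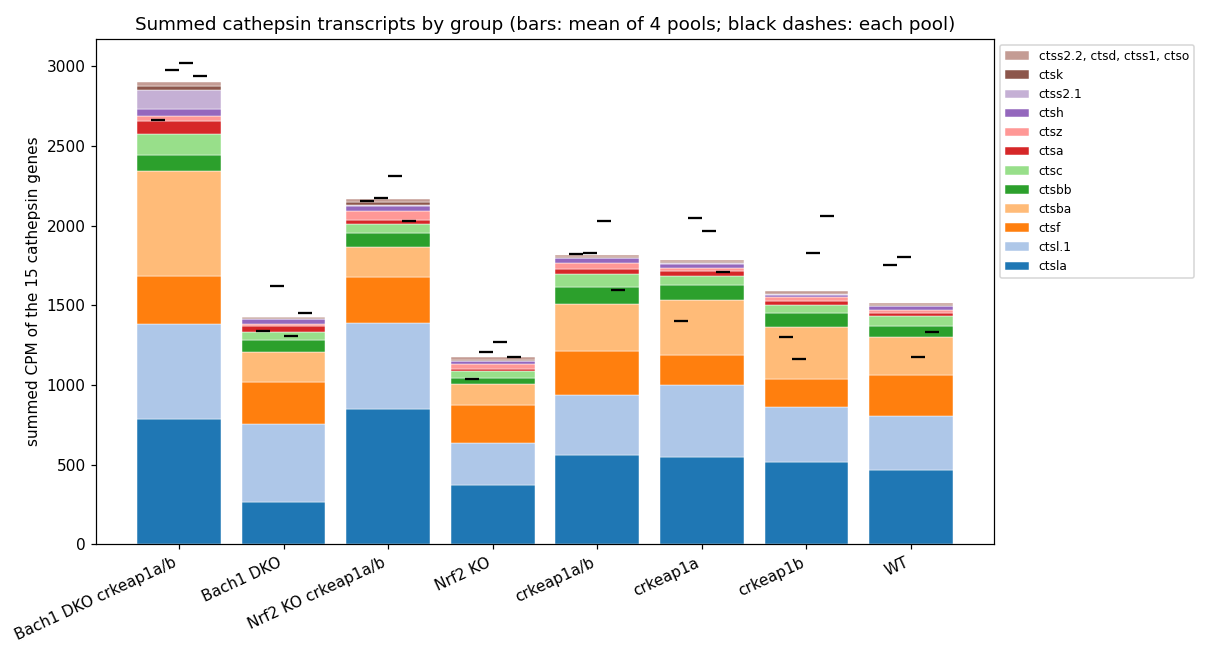
Summed CPM of the 15 cathepsin genes (vertical axis) in the 8 groups (horizontal axis). Coloured blocks are the mean of 4 pools for each gene, with ctss2.2, ctsd, ctss1 and ctso joined in 1 block, and black dashes are the sums of single pools. The tallest bar is Bach1 DKO crkeap1a/b at 2900 CPM, and the shortest is Nrf2 KO at 1174 CPM.

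A few genes supplied most of these transcripts. The cathepsin L gene ctsla gave 39.2% of the summed CPM in Nrf2 KO crkeap1a/b larvae, and 18.4% in Bach1 DKO larvae, its lowest share. In Bach1 DKO larvae the largest share belonged to ctsl.1, at 34.5%. The cathepsin B gene ctsba gave 22.8% in Bach1 DKO crkeap1a/b and 8.71% in Nrf2 KO crkeap1a/b larvae. At the other end, ctso, ctss1, ctsd, ctss2.1, ctss2.2 and ctsk each averaged under 10 CPM in at least 6 of the 8 groups. The 32 pools together held 137 counts of ctso and 133 of ctss1, and ctss1 was the row with too few counts to test. Its level ranged from 0 CPM in a crkeap1b pool to 7.03 CPM in another pool of the same group.

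**Figure D2:**
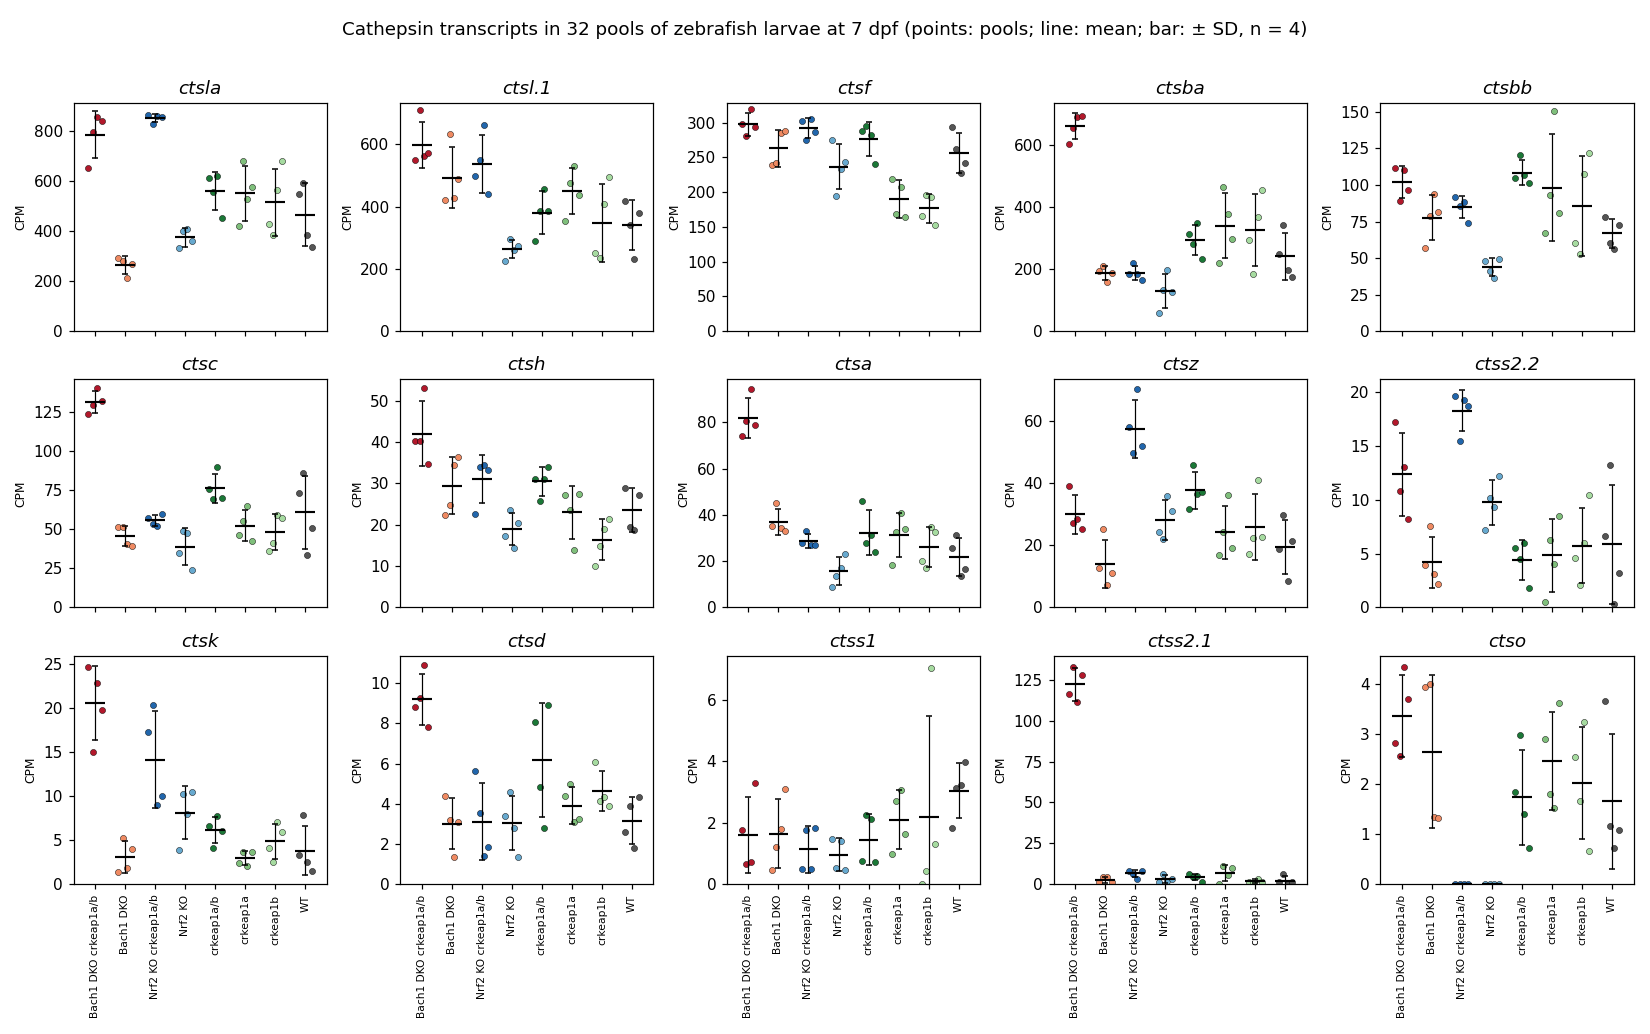
CPM of each cathepsin gene (vertical axes, each panel with its own scale starting at 0) in the 8 groups (horizontal axes). Points are pools, horizontal lines are means and bars are ± SD (n = 4). The Bach1 DKO crkeap1a/b pools stand apart for ctss2.1, at 112 to 133 CPM, and ctso is at 0 in the 8 pools of the Nrf2 KO line.

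Editing of keap1a and keap1b in Bach1 DKO larvae was accompanied by higher levels of 10 of the 14 tested cathepsins, and none was lower. Over all tested rows, 25.4% were called in this comparison and 13.7% were called higher. All calls here and below are at a Benjamini-Hochberg adjusted p under 0.05 in limma-voom, fitted on all 8 groups. The median log2 fold change was 1.36 over the 14 cathepsins and −0.05 over all rows tested. All 14 estimates were above 0.

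In the cathepsin L and B families, 1 gene of each pair was called and its paralog was not. ctsla (Entrez gene 321453) was at 650, 794, 854 and 839 CPM in the Bach1 DKO crkeap1a/b pools, and at 291, 281, 211 and 269 CPM in the Bach1 DKO pools. The lowest edited pool had more ctsla than any unedited pool, and the log2 fold change was 1.58 ± 0.17 (SE, limma-voom adjusted p = 3.09e-09). ctsba (Entrez gene 406645) was at 604, 657, 693 and 696 CPM in Bach1 DKO crkeap1a/b pools and at 194, 212, 157 and 189 CPM in Bach1 DKO pools. These groups did not overlap either, and ctsba was higher by 1.82 ± 0.25 (SE, log2; limma-voom adjusted p = 6.58e-07). The paralogs ctsl.1 (0.29 ± 0.20, adjusted p = 0.288) and ctsbb (0.41 ± 0.20, adjusted p = 0.131) did not pass the test in limma-voom, and their pools overlapped. ctsl.1 was at 550 to 709 CPM in Bach1 DKO crkeap1a/b pools and at 422 to 634 CPM in Bach1 DKO pools. With only the compared groups in the fit 13 cathepsins were called, ctsl.1 and ctsbb among them, and ctsbb was also called with quality weights and without TMM factors. The share of all rows called with only the compared groups is not given here. The difference between paralogs was not tested.

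The largest change was in cathepsin S. In mammals this protease trims the invariant chain in antigen-presenting cells. ctss2.1 (Entrez gene 554157) was at 117, 133, 112 and 128 CPM in Bach1 DKO crkeap1a/b pools, and at 1.31, 4.00, 4.46 and 0.886 CPM in Bach1 DKO pools, of which replicates 1 and 4 were at or under the 3-count limit. The log2 fold change was 5.65 ± 0.64 (SE, limma-voom adjusted p = 1.17e-08). In the 28 pools outside Bach1 DKO crkeap1a/b, ctss2.1 did not exceed 10.8 CPM. ctsk (Entrez gene 550475), the collagen-degrading protease of mammalian osteoclasts, was at 24.7, 15, 22.9 and 19.8 CPM in Bach1 DKO crkeap1a/b pools and at 1.31, 5.20, 1.78 and 3.98 CPM in Bach1 DKO pools. It was higher by 2.79 ± 0.44 (SE, log2; limma-voom adjusted p = 7.74e-06), with no overlap between the groups. Replicate 1 of Bach1 DKO, with 3 counts of ctsk, was at the 3-count limit.

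ctss2.2 (Entrez gene 337572) was at 17.3, 10.9, 13.1 and 8.24 CPM in Bach1 DKO crkeap1a/b pools and at 3.94, 7.61, 3.12 and 2.21 CPM in Bach1 DKO pools. Its log2 fold change was 1.57 ± 0.54 (SE, limma-voom adjusted p = 0.0302), and the groups did not overlap. That call was lost (largest adjusted p 0.0922) without replicate 1, 3 or 4 of Bach1 DKO or replicate 1 of Bach1 DKO crkeap1a/b. In the RefSeq order of genes, ctsk, ctss2.1 and ctss2.2 are direct neighbours, with no gene between them. Reads that match more than 1 of these related genes may have been counted differently, and how such reads were handled is not given in the sources used here.

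The exopeptidases, which trim proteins from their ends, were higher as well. ctsc (Entrez gene 368704), the dipeptidyl peptidase that activates granule proteases of immune cells in mammals, was at 124, 129, 140 and 132 CPM in Bach1 DKO crkeap1a/b pools and at 51.7, 51.2, 40.6 and 39.4 CPM in Bach1 DKO pools. The log2 fold change was 1.53 ± 0.20 (SE, limma-voom adjusted p = 2.63e-07), without overlap. The carboxypeptidase gene ctsz (Entrez gene 450022) was at 39.1, 27.2, 28.3 and 25.1 CPM in Bach1 DKO crkeap1a/b pools and at 12.7, 25.2, 7.13 and 11.1 CPM in Bach1 DKO pools. Its groups touched, since replicate 2 of Bach1 DKO reached the lowest edited pool, and the log2 fold change was 1.19 ± 0.31 (SE, limma-voom adjusted p = 0.00457). The aminopeptidase gene ctsh (Entrez gene 324818) was at 40.2, 40.3, 53.0 and 34.6 CPM in Bach1 DKO crkeap1a/b pools and at 22.3, 24.8, 34.3 and 36.3 CPM in Bach1 DKO pools. It overlapped, changed by 0.53 ± 0.20 (SE, log2; limma-voom adjusted p = 0.0437), and was the call most easily lost. It missed the threshold by DESeq2 (adjusted p = 0.05004), by edgeR's quasi-likelihood test (adjusted p = 0.0610) and in limma-voom (largest adjusted p 0.149) without replicate 1 or 2 of Bach1 DKO or replicate 1, 2 or 3 of Bach1 DKO crkeap1a/b.

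Both members outside the cysteine proteases were higher. ctsa (Entrez gene 321818), the carboxypeptidase that also shields beta-galactosidase and neuraminidase in mammalian lysosomes, was at 74.0, 80.6, 94.4 and 78.7 CPM in Bach1 DKO crkeap1a/b pools and at 35, 45.2, 34.3 and 33.2 CPM in Bach1 DKO pools. The log2 fold change was 1.14 ± 0.21 (SE, limma-voom adjusted p = 9.51e-05). ctsd (Entrez gene 65225), the aspartic protease, was at 8.81, 9.27, 10.9 and 7.83 CPM in Bach1 DKO crkeap1a/b pools and at 4.38, 3.2, 1.34 and 3.10 CPM in Bach1 DKO pools. It was higher by 1.63 ± 0.39 (SE, log2; limma-voom adjusted p = 0.00169), and neither gene overlapped between the groups. Replicate 3 of Bach1 DKO, with 3 counts of ctsd, was at the 3-count limit. The cysteine protease genes ctsf (0.18 ± 0.12, adjusted p = 0.289) and ctso (0.41 ± 0.42, adjusted p = 0.505) did not pass the test in limma-voom.

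In Nrf2 KO larvae, keap1a and keap1b editing was accompanied by higher levels of 4 of the 14 tested cathepsins, with none lower. Over all tested rows 0.822% were called in this comparison, and 0.73% were called higher. The median log2 fold change was 0.85 over the cathepsins and −0.00 over all rows tested, and 12 of the 14 estimates were above 0. Among those not above 0 was ctso, which had no count in either group and so carries no information on a change. At an unadjusted p under 0.05 in limma-voom, 11 cathepsins passed. The share of all tested rows at that unadjusted threshold is not given here.

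Both cathepsin L genes were among the 4. ctsla was at 861, 825, 857 and 854 CPM in Nrf2 KO crkeap1a/b pools and at 330, 401, 405 and 358 CPM in Nrf2 KO pools. The groups lay far apart, with a log2 fold change of 1.19 ± 0.17 (SE, limma-voom adjusted p = 2.81e-05). ctsl.1 (Entrez gene 436641) was at 498, 551, 661 and 440 CPM in Nrf2 KO crkeap1a/b pools and at 226, 297, 261 and 273 CPM in Nrf2 KO pools. Its log2 fold change was 1.01 ± 0.19 (SE, limma-voom adjusted p = 0.00272), again without overlap. These 2 calls held when any single pool was left out.

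The others were ctsbb and ctsz. ctsbb (Entrez gene 569298) was at 91.4, 85.8, 88.1 and 73.8 CPM in Nrf2 KO crkeap1a/b pools and at 48.2, 40.8, 36.4 and 49.5 CPM in Nrf2 KO pools, a log2 fold change of 0.96 ± 0.22 (SE, limma-voom adjusted p = 0.0204). ctsz was at 58.1, 49.5, 70.2 and 51.9 CPM in Nrf2 KO crkeap1a/b pools and at 24.1, 21.9, 36.0 and 30.9 CPM in Nrf2 KO pools, a log2 fold change of 1.02 ± 0.26 (SE, limma-voom adjusted p = 0.0424). Neither gene overlapped between the groups. The ctsbb call was lost (largest adjusted p 0.0707) without replicate 2 or 3 of Nrf2 KO or replicate 1 or 2 of Nrf2 KO crkeap1a/b, and the ctsz call (largest adjusted p 0.139) without any single pool other than replicate 3 of Nrf2 KO.

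The count in the Nrf2 KO line changed with the fit. With only the 2 compared groups in the fit, 9 cathepsins were called, which added ctsa, ctsc, ctsf, ctsh and ctss2.2. With pools weighted by their quality, 7 were called. The shares of all rows called in these fits are not given here, so whether the rise is particular to the cathepsins is not shown. ctsba, at 165 to 220 CPM in Nrf2 KO crkeap1a/b pools and 59.8 to 196 CPM in Nrf2 KO pools, was not called in these fits, and ctss2.1 stayed between 3.30 and 8.20 CPM in Nrf2 KO crkeap1a/b pools and between 0.965 and 6.12 CPM in Nrf2 KO pools.

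In larvae without a mutant line, 2 of the 14 tested cathepsins passed the test in crkeap1a/b larvae against WT larvae, both higher, where 5.29% of all tested rows were called and 3.35% were called higher. The median log2 fold change was 0.40 over the cathepsins and −0.02 over all rows tested. All 14 estimates were above 0, and 6 passed an unadjusted p under 0.05 in limma-voom, for which no share over all rows is given here. ctsz was at 31.5, 45.8, 36.4 and 37.1 CPM in crkeap1a/b pools and at 18.7, 29.6, 8.63 and 21.3 CPM in WT pools. ctsbb was at 105, 121, 107 and 101 CPM in crkeap1a/b pools and at 78.1, 60.4, 56.1 and 72.6 CPM in WT pools.

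Every crkeap1a/b pool stood above every WT pool for both genes. The log2 fold changes were 1.07 ± 0.27 for ctsz (SE, limma-voom adjusted p = 0.0126) and 0.71 ± 0.20 for ctsbb (SE, limma-voom adjusted p = 0.0260). Without replicate 3 of WT neither gene was called, with ctsz at an adjusted p of 0.110, and the ctsbb call was also lost (largest adjusted p 0.0860) without replicate 2 of WT or replicate 2 of crkeap1a/b. ctsla, at 450 to 617 CPM in crkeap1a/b pools and 336 to 592 CPM in WT pools, overlapped (0.29 ± 0.17, adjusted p = 0.376 in limma-voom).

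**Figure D3:**
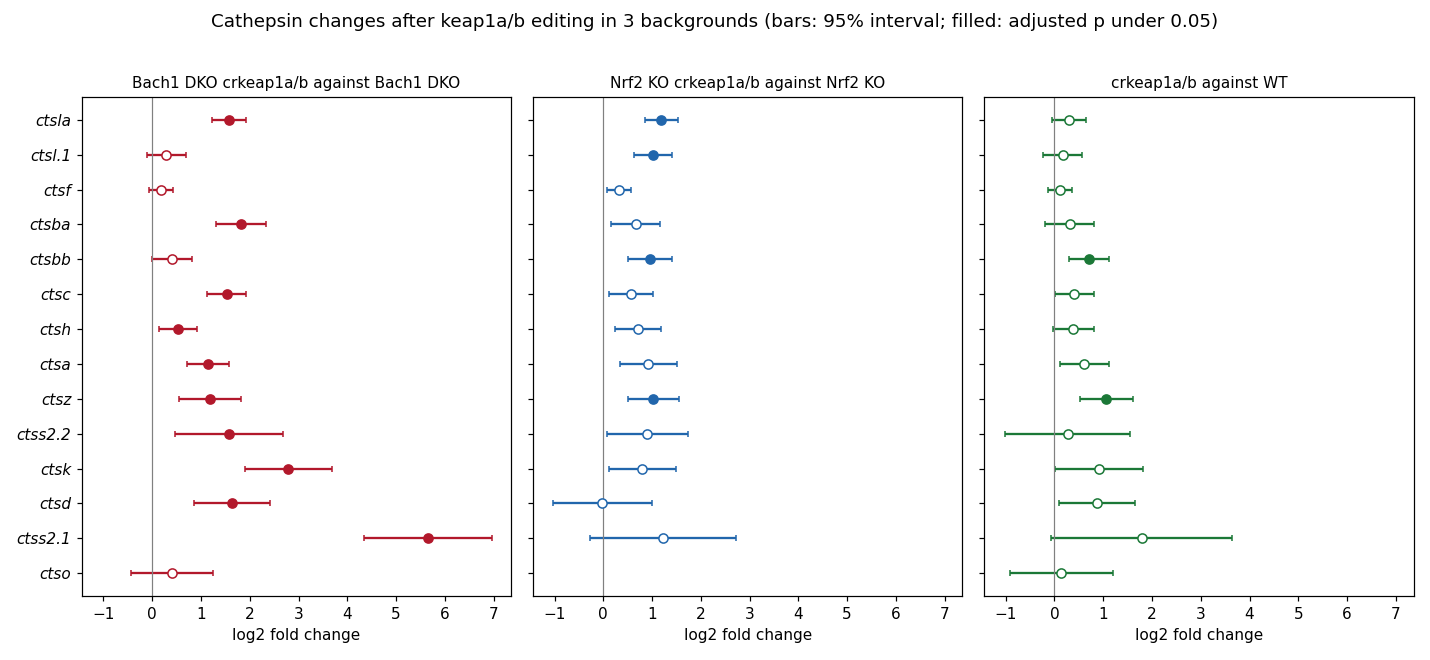
Log2 fold change (horizontal axes) of the 14 tested cathepsins (rows) with keap1a and keap1b editing in the Bach1 DKO line, in the Nrf2 KO line and in larvae without a mutant line. Points are limma-voom estimates, bars are 95% intervals, and filled points passed an adjusted p under 0.05, which were 10, 4 and 2 genes. ctso in the Nrf2 KO panel has no point, since all 8 pools were at 0.

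The difference between these editing effects was tested as an interaction. The change with editing in the Bach1 DKO line exceeded the change without it for 3 cathepsins, where 2.75% of all tested rows were called and 1.49% were called higher. These were ctsla (1.28 ± 0.24, adjusted p = 0.00156), ctsba (1.5 ± 0.35, adjusted p = 0.0136) and ctsc (1.12 ± 0.28, adjusted p = 0.0217; SE, log2, limma-voom). The median over the 14 cathepsins was 0.65, and over all rows tested −0.01. Unedited Bach1 DKO larvae against WT were at −0.79 for ctsla (called lower), −0.32 for ctsba and −0.32 for ctsc. Bach1 DKO crkeap1a/b exceeded crkeap1a/b larvae by 0.49, 1.18 and 0.79 (log2) for ctsla, ctsba and ctsc. The ctsla interaction thus holds a lower unedited level as well as a higher edited level. For ctss2.1 the interaction was 3.87 ± 1.12 and just missed the threshold (adjusted p = 0.0508 in limma-voom), while DESeq2 and edgeR's quasi-likelihood test called it. It was also called with only the compared groups, without the count filter, without TMM factors, with a replicate block and with quality weights. With rows lacking a gene ID included it was not called, and of the fits without 1 pool only that without replicate 3 of WT called it. DESeq2 also called ctsk and so gave 5 genes. The ctsc call was lost (largest adjusted p 0.0764) without replicate 4 of crkeap1a/b, replicate 3 or 4 of Bach1 DKO, or replicate 1 or 2 of WT.

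For ctsz, which passed the test with editing in all 3 backgrounds, the interaction with Bach1 was 0.12 with a 95% interval of −0.72 to 0.96, so a difference of nearly 1 on the log2 scale in that direction could not be told from none. The corresponding interaction with the Nrf2 KO line called 0 cathepsins in limma-voom, against 1.16% of all tested rows. At an unadjusted p under 0.05, for which no share over all rows is given here, 2 cathepsins passed. They were ctsla (0.90 ± 0.24, adjusted p = 0.0545) and ctsl.1 (0.84 ± 0.28, adjusted p = 0.167). Both stayed above 0 over their 95% intervals, from 0.41 to 1.38 for ctsla and from 0.29 to 1.4 for ctsl.1. edgeR's quasi-likelihood test called 0 and DESeq2 called 1, ctsla. With only the compared groups or with quality weights, 2 were called, ctsla and ctsl.1. Without replicate 3 or replicate 4 of WT, 1 was called. The median was 0.23 over the cathepsins and 0.00 over all rows tested. That median includes ctso, which had no count in the Nrf2 KO line.

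With editing of a single keap1 gene, ctsf was the 1 cathepsin called. In crkeap1a larvae against WT, 1 of 14 was called, where 13.2% of all tested rows were called. In crkeap1b larvae against WT, 1 of 14 was called, where 18.1% were called. These counts of 1 of 14 were not tested against the shares over all genes. ctsf (Entrez gene 565588), which encodes the cysteine protease cathepsin F, was at 219, 169, 208 and 165 CPM in crkeap1a pools, at 166, 196, 193 and 152 CPM in crkeap1b pools and at 293, 262, 228 and 242 CPM in WT pools. All pools edited at a single gene stood below all WT pools, while the 4 crkeap1a/b pools (288, 295, 282 and 240 CPM) overlapped with WT. The log2 fold change of ctsf was −0.44 ± 0.12 (SE) in crkeap1a larvae, with an adjusted p of 0.0163 by limma-voom. The value for crkeap1b larvae was −0.53 ± 0.12, with an adjusted p of 0.00272 in the same limma-voom fit.

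The 2 single-gene comparisons share the WT pools. Over all tested rows, 1865 were called in crkeap1a, 2548 in crkeap1b and 747 in crkeap1a/b larvae, each against WT. The paper reports a limited number of changed genes after loss of either keap1 gene alone, and widespread changes after loss of both. The counts of called rows here were in the opposite order, and the cause was not tested. The paper's threshold and the groups in its fit are not given in the sources used here, so the counts cannot be compared directly. Counts here came from the fit to all 8 groups, without a fold-change limit. Pools varied more in crkeap1a (SD 0.52, log2 CPM) and crkeap1b larvae (0.56) than in crkeap1a/b (0.37) and WT larvae (0.39). Calls over all rows with only the compared groups are not given here. Both ctsf calls were lost when only the compared groups entered the fit (adjusted p = 0.0879 in crkeap1a and 0.0806 in crkeap1b, limma-voom). In crkeap1a it was also lost (largest adjusted p 0.0826) without replicate 2 of crkeap1a or replicate 1 of WT. Without replicate 1 of crkeap1a, 4 cathepsins were called in that comparison, and without replicate 2 of crkeap1b, 2 were called in the other. The medians over the cathepsins were 0.36 and 0.33, against 0.01 and −0.00 over all rows tested. Macrophage markers were lower for 2 of 7 in crkeap1a and 1 of 7 in crkeap1b larvae, and lysosome-rich enterocyte markers were higher for 2 of 6 and 1 of 6. In crkeap1b larvae exocrine pancreas markers were higher for 3 of 5, hepatocyte markers higher for 1 of 7 and neutrophil markers lower for 1 of 5. Over all tested rows 13.2% were called in crkeap1a and 18.1% in crkeap1b larvae, so the marker counts of 1 are near the share over all rows. The part of these tissues in the ctsf values was not tested.

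The joint effect of both edits differed from the sum of the single effects for ctsf (1.08 ± 0.17, adjusted p = 1.12e-05), ctsh (1.00 ± 0.33, adjusted p = 0.0153) and ctsc (0.83 ± 0.29, adjusted p = 0.0242; SE, log2, limma-voom). This interaction of keap1a with keap1b editing called 38.2% of all tested rows, beside 3 of 14 cathepsins, and these shares were not compared by a test. ctsh was at 31.2, 25.7, 31.2 and 33.9 CPM in crkeap1a/b pools, at 27.2, 23.4, 13.8 and 27.5 CPM in crkeap1a pools, at 10.1, 14.9, 18.9 and 21.5 CPM in crkeap1b pools and at 29.0, 19.5, 18.7 and 27.1 CPM in WT pools. ctsc was at 75.5, 69.3, 89.6 and 70.0 CPM in crkeap1a/b pools, at 46.5, 55.4, 64.8 and 42.8 CPM in crkeap1a pools, at 36.0, 41.5, 58.9 and 57.3 CPM in crkeap1b pools and at 73.0, 86.2, 33.5 and 50.5 CPM in WT pools.

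Of these 4 groups, crkeap1a/b larvae had the highest mean of both genes, and WT pools overlapped with each edited group. Without replicate 1 of crkeap1b, ctsh was at an adjusted p of 0.0565 in limma-voom and ctsf alone was called, and the ctsc call was also lost (largest adjusted p 0.0661) without replicate 1 or 2 of WT. The median was −0.11 over the cathepsins and 0.01 over all rows tested, and without TMM factors 7 cathepsins were called. In the same interaction, markers of exocrine pancreas were called lower for 5 of 5 (median −1.39) and of hepatocytes for 4 of 7 (median −1.13). The tested genes of the hatching gland list, agr2 and xbp1, were lower for 2 of 2. Lysosome-rich enterocyte markers had 1 of 6 higher and 2 lower, macrophage markers 1 of 7 higher and neutrophil markers 0 of 5 called in limma-voom. The part of these tissues in the ctsf, ctsh and ctsc values was not tested.

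Without editing, 3 of the tested cathepsins were called in each mutant line against WT, which is near the share over all tested rows. In Bach1 DKO against WT larvae, 3 of 14 were called, where 23.4% of all tested rows were called, with medians of 0.12 over the cathepsins and 0.02 over all rows. ctsla was lower (−0.79 ± 0.17, adjusted p = 6.90e-04), with all Bach1 DKO pools (211 to 291 CPM) below all WT pools (336 to 592 CPM). ctsa was higher by 0.84 ± 0.25 (adjusted p = 0.0128) and ctsl.1 by 0.54 ± 0.20 (adjusted p = 0.0408; SE, log2, limma-voom).

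The ctsa call was lost (largest adjusted p 0.0679) without replicate 2 of Bach1 DKO or replicate 3 of WT. The ctsl.1 call was lost (largest adjusted p 0.187) without replicate 2 or 4 of Bach1 DKO or replicate 2 or 3 of WT. Without replicate 2 of Bach1 DKO, only ctsla was called. In each comparison of a mutant line with larvae outside it, the mutation and other differences between the lines cannot be told apart. Macrophage markers were lower for 4 of 7 in Bach1 DKO larvae (median −1.29), with sums of 44.3 to 64.1 CPM in Bach1 DKO pools and 84.5 to 179 CPM in WT pools. Neutrophil markers were lower for 2 of 5 (median −1.88), with sums of 16.2 to 33.2 CPM in Bach1 DKO pools and 42.1 to 126 CPM in WT pools. Lysosome-rich enterocyte markers were higher for 2 of 6 (cubn by 0.71 and lrp2b by 1.38, log2). Hepatocyte markers had 1 of 7 higher and 1 lower. Over all tested rows 23.4% were called in this comparison. The part of these cells in the ctsla, ctsa and ctsl.1 values was not tested.

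In Nrf2 KO against WT larvae, 3 of 14 were called, where 15.9% of all tested rows were called, with medians of −0.30 over the cathepsins and 0.01 over all rows. ctso (Entrez gene 567333) had no count in any of the 8 pools of the Nrf2 KO line. It was at 3.67, 1.17, 0.72 and 1.08 CPM in WT pools, which is 18 counts in all, of which 10 were in replicate 1. Against a limit of 3 counts over the Nrf2 KO group, ctso was at least 4.64-fold lower if the WT counts are taken as exact. Counting error and spread in the WT pools are not included in that value. The call (adjusted p = 0.00928) was lost in limma-voom without replicate 1 of WT (adjusted p = 0.0530), the pool with most ctso. ctsba was lower (−0.98 ± 0.25, adjusted p = 0.00582), at 59.8, 134, 196 and 125 CPM in Nrf2 KO pools and 249, 344, 199 and 174 CPM in WT pools, and the call was lost without replicate 1 of Nrf2 KO (adjusted p = 0.0502). ctsk was higher by 1.26 ± 0.45 (adjusted p = 0.0479; SE, log2, limma-voom) but lost its call (largest adjusted p 0.177) without replicate 2, 3 or 4 of Nrf2 KO or replicate 1, 3 or 4 of WT. Exocrine pancreas markers were higher for 3 of 5 and hepatocyte markers for 2 of 7 in Nrf2 KO larvae. Lower were 1 of 5 neutrophil markers and 1 of 2 tested genes of the hatching gland list (xbp1). The part of these tissues in the cathepsin values was not tested.

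**Figure D4:**
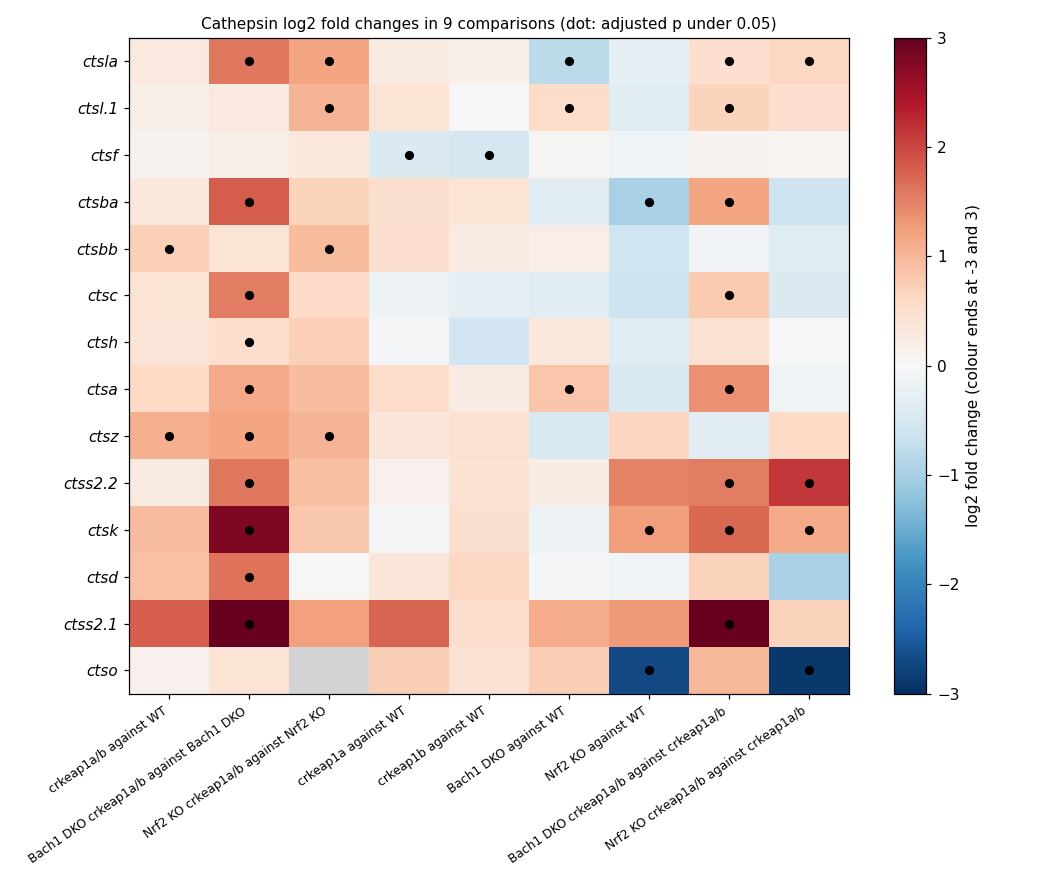
Log2 fold change (colour, red higher and blue lower in the group named first) of the 14 tested cathepsins (rows) in the 9 comparisons (columns). Dots mark an adjusted p under 0.05 in limma-voom, the colour scale ends at −3 and 3, and the grey square is ctso where both groups were at 0. The ctso squares of the 2 comparisons of the Nrf2 KO line with other larvae show fitted values against groups at 0. Dots are most frequent in the columns of Bach1 DKO crkeap1a/b, with 10 against Bach1 DKO and 8 against crkeap1a/b.

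Larvae of each mutant line edited at both keap1 genes were also set against crkeap1a/b larvae, and the 2 comparisons share the crkeap1a/b pools. Bach1 DKO crkeap1a/b larvae had higher levels of 8 of 14 than crkeap1a/b larvae and lower levels of none, where 29.9% of all tested rows were called, with medians of 0.75 over the cathepsins and 0.00 over all rows. ctss2.1 was higher by 4.98 ± 0.48 (adjusted p = 9.51e-10), with crkeap1a/b pools at 5.87, 4.47, 4.90 and 1.43 CPM. ctsk was higher by 1.72 ± 0.31 (adjusted p = 5.97e-05; SE, log2, limma-voom), with crkeap1a/b pools at 6.60, 4.1, 7.70 and 6.07 CPM. ctss2.2 was higher by 1.53 ± 0.50 (adjusted p = 0.0186), with crkeap1a/b pools at 5.50, 4.47, 5.95 and 1.78 CPM, and for these 3 genes no pool overlapped.

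The others were ctsa (1.37), ctsba (1.18), ctsc (0.79), ctsl.1 (0.67) and ctsla (0.49, log2). The ctsla call was lost (largest adjusted p 0.109 in limma-voom) without replicate 4 of crkeap1a/b or replicate 2, 3 or 4 of Bach1 DKO crkeap1a/b. The ctss2.2 call was lost (largest adjusted p 0.0874) without replicate 4 of crkeap1a/b or replicate 1 of Bach1 DKO crkeap1a/b. Exocrine pancreas markers were lower for 4 of 5 in Bach1 DKO crkeap1a/b larvae, with sums of 2940 to 4118 CPM in Bach1 DKO crkeap1a/b pools and 5428 to 8378 CPM in crkeap1a/b pools. These sums also hold cpa1, which had too few counts to test. Hepatocyte markers had 3 of 7 higher and 1 lower, and 2 of 7 macrophage and 2 of 5 neutrophil markers were higher. So was clcn7, the only tested gene of the osteoclast list, which alone does not measure osteoclasts. Summed macrophage markers were at 60.2 to 80.9 CPM in Bach1 DKO crkeap1a/b pools and 75.6 to 107 CPM in crkeap1a/b pools, and the part of these cell types in the higher cathepsins was not tested.

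For Nrf2 KO crkeap1a/b larvae against crkeap1a/b larvae, 4 of 14 were called, a share near the 24.1% over all tested rows. The medians were 0.05 over the cathepsins and 0.01 over all rows. ctss2.2 was higher by 2.13 ± 0.49 (adjusted p = 0.00147), at 19.7, 15.5, 19.3 and 18.7 CPM in Nrf2 KO crkeap1a/b pools, the highest group mean for this gene. ctsk was higher by 1.14 ± 0.33 (adjusted p = 0.0106), at 17.3, 20.3, 8.95 and 10.0 CPM in Nrf2 KO crkeap1a/b pools, and ctsla by 0.62 ± 0.17 (adjusted p = 0.00801; SE, log2, limma-voom). For these 3 genes every Nrf2 KO crkeap1a/b pool stood above every crkeap1a/b pool. ctso was at least 4.98-fold lower if the 19 counts in the crkeap1a/b pools are taken as exact. The ctsk call was lost without replicate 2 of Nrf2 KO crkeap1a/b (adjusted p = 0.0570 in limma-voom). With only the compared groups in the fit, with quality weights or without TMM factors 8 were called, and among the added genes ctsba and ctsc were lower in Nrf2 KO crkeap1a/b larvae in all 3 fits. Of these fits, calls over all rows are given below only for that without TMM factors.

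Markers of other tissues moved in the same comparison. Exocrine pancreas markers were higher for 5 of 5 in Nrf2 KO crkeap1a/b larvae, with sums of 11543 to 15999 CPM in Nrf2 KO crkeap1a/b pools and 5428 to 8378 CPM in crkeap1a/b pools. Hepatocyte markers were higher for 3 of 7 (4070 to 5590 CPM in Nrf2 KO crkeap1a/b pools and 2052 to 2920 CPM in crkeap1a/b pools), neutrophil markers for 2 of 5 (68.3 to 137 CPM in Nrf2 KO crkeap1a/b pools and 26.5 to 54.6 CPM in crkeap1a/b pools) and macrophage markers for 1 of 7. Lysosome-rich enterocyte markers were lower for 3 of 6, at 298 to 408 CPM in Nrf2 KO crkeap1a/b pools and 443 to 575 CPM in crkeap1a/b pools. The pancreas, hepatocyte and enterocyte sums also hold cpa1, hpxa and slc10a2 respectively, which had too few counts to test. The part of these tissues in the cathepsin levels was not tested.

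Genes that serve the same compartment are given here from lists, by count. For comparison with this and the later lists, the shares called higher over all tested rows follow. They were 13.7% with editing in the Bach1 DKO line, 0.73% in the Nrf2 KO line and 3.35% without a mutant line. Among other lysosomal peptidases and the factor prosaposin, 6 of 6 tested were higher in Bach1 DKO crkeap1a/b larvae than in Bach1 DKO larvae (median 1.44), 3 of 6 were higher in Nrf2 KO crkeap1a/b than in Nrf2 KO larvae (median 0.82), and 3 of 6 in crkeap1a/b than in WT larvae (median 0.57). lgmn, legumain, which cleaves precursors of several cathepsins, averaged 560 CPM in Bach1 DKO crkeap1a/b and 216 CPM in Bach1 DKO larvae (1.36 ± 0.18, adjusted p = 3.73e-07). It averaged 482 CPM in Nrf2 KO crkeap1a/b and 202 CPM in Nrf2 KO larvae (1.26 ± 0.18, adjusted p = 2.87e-05), and 533 CPM in crkeap1a/b larvae, against 360 CPM in WT (0.64 ± 0.18, adjusted p = 0.0320; SE, log2, limma-voom). Unedited Bach1 DKO and Nrf2 KO larvae had less lgmn than WT larvae (−0.66 and −0.75, limma-voom adjusted p = 0.00725 and 0.00333). The edited larvae of these lines did not differ from crkeap1a/b larvae beyond the threshold (0.07 and −0.13). tpp1, tripeptidyl peptidase, was higher by 1.51 in the Bach1 DKO line and by 1.11 in the Nrf2 KO line, and its estimate without a mutant line was 0.05 (adjusted p = 0.944 in limma-voom). scpep1, a serine carboxypeptidase, was higher in all 3 comparisons, by 1.63, 1.03 and 1.29 on the log2 scale in the Bach1 DKO line, the Nrf2 KO line and larvae without a mutant line.

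Of 14 other lysosomal hydrolases and lipid-handling proteins, 10 were higher with editing in the Bach1 DKO line (median 0.97), 3 in the Nrf2 KO line (median 0.68) and 2 without a mutant line (median 0.32), and none was lower. The most changed was fuca1.1, an alpha-fucosidase, at 163 CPM in Bach1 DKO crkeap1a/b and 29.8 CPM in Bach1 DKO larvae (2.45 ± 0.19, limma-voom adjusted p = 9.38e-13). Unedited, fuca1.1 was lower in Bach1 DKO than in WT larvae (−1.11, limma-voom adjusted p = 8.05e-05). It was higher by 1.38 with editing in the Nrf2 KO line as well, where naga (1.22) and galca (1.5) were the other calls. Of 6 tested inhibitors, 3 were higher with editing in the Bach1 DKO line, among them the cystatin-family genes cst14a.2 (2.12) and cst14b.1 (1.5), against 1 in the Nrf2 KO line, cst14b.1 (0.78), and 1 without a mutant line, cst14a.2 (1.21, log2).

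Some of the sorting genes and MiT/TFE factors passed the test with editing in the Bach1 DKO line, and not in the other backgrounds. Over all tested rows 25.4% were called in the Bach1 DKO line, 0.822% in the Nrf2 KO line and 5.29% without a mutant line. In the latter backgrounds, counts of 0 in lists of 10 and 4 genes are near the share over all rows. Tested as an interaction in limma-voom, the editing effect in the Bach1 DKO line did not differ beyond the threshold from that in larvae without a mutant line for any gene of these lists (m6pr 0.75 ± 0.32, adjusted p = 0.206, nagpa 0.78 ± 0.35, adjusted p = 0.234; SE, log2). Of 10 sorting genes, 6 were higher with editing in the Bach1 DKO line (median 0.51) and 0 in each of the other backgrounds in limma-voom. The largest were nagpa (1.14), which completes the mannose 6-phosphate tag, and m6pr (0.97), a receptor for it. Of 4 tested MiT/TFE genes, 2 were higher with editing in the Bach1 DKO line and 0 in the other backgrounds. tfe3a averaged 115 CPM in Bach1 DKO crkeap1a/b and 68.8 CPM in Bach1 DKO larvae (0.74 ± 0.19, limma-voom adjusted p = 0.00446), and tfeb averaged 27.0 CPM in Bach1 DKO crkeap1a/b and 17.3 CPM in Bach1 DKO larvae (0.62 ± 0.19, limma-voom adjusted p = 0.0139). In Nrf2 KO crkeap1a/b against Nrf2 KO larvae the estimates were 0.21 for tfe3a and −0.45 for tfeb, and in crkeap1a/b against WT larvae 0.54 and 0.46, none of which passed. tfe3b was between −0.21 and 0.09 in these 3 comparisons and did not pass.

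Several cell types rich in these proteases contribute RNA to a whole larva, and in such pools a change in the number of cells and a change in RNA per cell cannot be told apart. Of 7 tested macrophage markers, 3 were higher in Bach1 DKO crkeap1a/b than in Bach1 DKO larvae (mpeg1.2, mfap4.1 and marco, by 2.47, 1.77 and 1.72 on the log2 scale). The others were not called in limma-voom, with estimates from −3.84 for grna.2 to 0.84 for spi1b. The summed level of all 7 was 60.2 to 80.9 CPM in Bach1 DKO crkeap1a/b pools and 44.3 to 64.1 CPM in Bach1 DKO pools. WT pools, with 84.5 to 179 CPM, lay above both. Of 5 neutrophil markers, 2 were higher in Bach1 DKO crkeap1a/b larvae (mmp9 and mmp13a). Of the osteoclast markers only clcn7 could be tested, and it was not called (0.17 ± 0.16, limma-voom adjusted p = 0.473), while tnfrsf11a averaged 1.78 CPM in Bach1 DKO crkeap1a/b and 3.07 CPM in Bach1 DKO larvae. The part of these cells in the higher ctss2.1, ctsk and ctsc levels was not tested.

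In the Nrf2 KO line, 0 of 7 macrophage and 0 of 5 neutrophil markers were called with editing in limma-voom, with summed macrophage markers of 98.9 to 129 CPM in Nrf2 KO crkeap1a/b and 60.8 to 162 CPM in Nrf2 KO pools. In crkeap1a/b against WT larvae 1 macrophage marker (grna.2) and 2 neutrophil markers (mpx and npsn) were lower, and none was higher, beside the higher ctsz and ctsbb. Lysosome-rich enterocytes of the gut take up protein through cubn, amn and dab2, and none of these 3 was called in the 3 editing comparisons. That list had 1 of 6 called in the Bach1 DKO line (neu1, also counted as a hydrolase), 0 in the Nrf2 KO line and 1 without a mutant line (lrp2b), all higher.

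Hepatocyte markers had 1 of 7 higher and 1 lower with editing in the Bach1 DKO line, and 0 called in the other 2 comparisons. Of the hatching gland list only agr2 and xbp1 could be tested, while he1.1 had too few counts. The list had 0 of 2 called in both mutant lines and 2 of 2 lower in crkeap1a/b against WT larvae. These 2 genes alone do not measure hatching gland cells. Exocrine pancreas markers were lower for 5 of 5 with editing in the Bach1 DKO line. Summed together with the untested cpa1, they were at 2940 to 4118 CPM in Bach1 DKO crkeap1a/b pools and 7971 to 8428 CPM in Bach1 DKO pools. They had 0 of 5 called in the Nrf2 KO line and 1 of 5 lower in crkeap1a/b against WT larvae. Whether these shifts in marker genes bear on the cathepsin levels was not tested.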

How the data were processed

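Raw counts per gene were deposited by the authors as 1 table for 32 pools. According to the submitters' notes and the study's methods, single-end QuantSeq 3′ reads were checked with FastQC (0.72), trimmed with cutadapt (1.16), aligned to danRer11 with STAR (2.7.5b) and counted with featureCounts (1.6.3) against a published zebrafish annotation, and the authors tested with limma-voom (3.40.6). Columns were matched to pools by their names.

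Rows without an Entrez gene ID (786 rows, 30.6 to 46.8% of the counts per pool) were left out of library sizes and tests. Symbols came from RefSeq tables (assembly GRCz12tu, used for names and gene order only) and matched 15617 of 16039 IDs. Rows with low counts were removed with edgeR's filterByExpr (4.0.16, minimum count 10), leaving 14108. limma-voom (3.58.1, R 4.3.3) with TMM factors was fitted to the 8 group means, with 24 residual and 12.9 prior degrees of freedom. There were 9 comparisons and 3 interactions, with Benjamini-Hochberg adjustment over all rows in each. The fit was tested on simulated data with the same dispersion in all rows and changes placed only in well-counted rows of crkeap1a/b pools. That test does not cover rows with few counts or groups of unequal spread. CPM used TMM-scaled totals. No pair of pools agreed within sampling noise (smallest chi-square per degree of freedom 1.74).

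The members and the gene lists were chosen with earlier results of these data known. All 15 rows are named. Full values are given for members called in an editing comparison or an interaction, or called elsewhere with a log2 fold change of 1.5 or more, and at most 4 called genes per list are named, besides tfeb, tfe3a, tfe3b, lgmn and the cell type markers. Names on a list without a matching row were not analysed here. Alternatives were edgeR's quasi-likelihood test, DESeq2 (1.42.0), no TMM factors, no count filter, only the compared groups, quality weights, a replicate block and each pool left out. A fit that kept the rows without a gene ID was added after seeing the data.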

Additional observations from a re-analysis of the deposited data

Results flagged for a closer look

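In 5 of the 120 groups of 4 pools (15 genes in 8 groups), 1 pool stood far from the other 3, and chance alone flags about 1 in 20 such groups. For ctsa these were replicate 2 of Bach1 DKO at 45.2 CPM, with the others between 33.2 and 35 CPM, and replicate 2 of Nrf2 KO crkeap1a/b at 33.2 CPM, with the others between 26.8 and 27.7 CPM. ctsh was at 22.5 CPM in replicate 1 of Nrf2 KO crkeap1a/b, where the other pools had 33.3 to 34.4 CPM. ctsl.1 reached 709 CPM in replicate 2 of Bach1 DKO crkeap1a/b, against 550 to 572 CPM in the other pools of the group. ctso reached 3.67 CPM in replicate 1 of WT, with 0.72 to 1.17 CPM in the others.

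Tested as an interaction in limma-voom, the effect of editing differed between groups for 6 values. The log2 change with keap1a and keap1b editing was larger in the Bach1 DKO line than without it for ctsba by 1.5, for ctsla by 1.28 and for ctsc by 1.12. That interaction called 2.75% of all tested rows. Unedited Bach1 DKO larvae had less ctsla than WT larvae (−0.79, log2). The joint effect of both keap1 edits exceeded the sum of the single effects by 1.08 for ctsf, 1.00 for ctsh and 0.83 for ctsc, where 38.2% of all tested rows were called. In crkeap1a/b against WT larvae these 3 genes changed by 0.11, 0.39 and 0.41 and were not called in limma-voom. For ctsf the single effects were −0.44 in crkeap1a and −0.53 in crkeap1b larvae.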

How the results depend on the processing

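Of 42 called changes in single cathepsins, none reversed under any alternative. All 42 kept their call without the count filter and with quality weights, 41 under DESeq2, 40 without TMM factors, 39 under edgeR, and, with only the compared groups, 36 of the 40 that gave a value. With rows lacking a gene ID included, 40 kept their call and the 2 ctso changes were not tested. Counts of called cathepsins moved by more than 1.5 times as follows. Calls over all rows are given below only for the fit without TMM factors. The other counts have no share over all rows beside them. With only the compared groups they were 9 for editing in the Nrf2 KO line, 0 for crkeap1a and 0 for crkeap1b against WT, 8 for Nrf2 KO crkeap1a/b against crkeap1a/b and 2 for the Nrf2 interaction. With quality weights they were 7, 5, 8 and 2 for editing in the Nrf2 KO line, Nrf2 KO against WT, Nrf2 KO crkeap1a/b against crkeap1a/b and the Nrf2 interaction. DESeq2 gave 5 for Nrf2 KO against WT, 5 for the Bach1 interaction and 1 for the Nrf2 interaction. Without TMM factors they were 4 for crkeap1b against WT, 8 for Nrf2 KO crkeap1a/b against crkeap1a/b and 7 for the interaction of keap1a with keap1b editing. The cause was not tested.

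Leaving out 1 pool gave 8 to 10 calls for editing in the Bach1 DKO line, 2 to 3 in the Nrf2 KO line and 0 to 2 in crkeap1a/b against WT. It gave 0 to 4 for crkeap1a, 1 to 2 for crkeap1b, 1 to 3 for Bach1 DKO and 1 to 4 for Nrf2 KO, each against WT, and 7 to 9 for Bach1 DKO crkeap1a/b and 3 to 6 for Nrf2 KO crkeap1a/b, each against crkeap1a/b. The interactions had 2 to 4 calls with Bach1, 0 to 1 with Nrf2 and 1 to 4 for keap1a with keap1b.

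No comparison had a correlation above 0.1 in every same-numbered pair of pools, so the numbers were not taken as pairing. In the Bach1 DKO line same-numbered pairs were at 0.075 to 0.156 (mean 0.129) and other pairs averaged −0.043. There, 2 of 4 pools correlated best with their own number. Pairing within that line alone was not fitted. A replicate block, in which each number had the same effect in all 8 groups, kept 38 of the 42 calls. It gave 8 calls for editing in the Bach1 DKO line (without ctsh and ctss2.2), 3 in the Nrf2 KO line (without ctsz), 2 for Nrf2 KO against WT (without ctsk) and 4 for the Bach1 interaction.

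Without TMM factors the median log2 fold change of all rows was −0.25 for crkeap1a and −0.44 for crkeap1b against WT, 0.13 for Bach1 DKO against WT, 0.10 for Bach1 DKO crkeap1a/b and −0.18 for Nrf2 KO crkeap1a/b against crkeap1a/b, −0.13 for the Nrf2 interaction and 0.82 for the interaction of keap1a with keap1b. Calls over all rows were then 613 higher and 151 lower (473 and 274 with TMM) for crkeap1a/b against WT, 2186 and 838 (1938 and 1650) for editing in the Bach1 DKO line, 418 and 2098 (881 and 984) for crkeap1a, 496 and 4619 (1389 and 1159) for crkeap1b, 1991 and 1088 (1671 and 1635) for Bach1 DKO, 825 and 1114 (1187 and 1055) for Nrf2 KO, 2559 and 1268 (2243 and 1981) for Bach1 DKO crkeap1a/b, 1088 and 2415 (1845 and 1553) for Nrf2 KO crkeap1a/b, 46 and 105 (67 and 97) for the Nrf2 interaction, and 6516 and 823 (2753 and 2643) for keap1a with keap1b.

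At the depth of these libraries, differences in ctso, ctss1 and, outside Bach1 DKO crkeap1a/b larvae, ctss2.1 rested on few counts per pool and small changes were not detectable. Counts were also few in Bach1 DKO pools for ctsk (3 to 13 per pool), ctsd (3 to 10) and ctss2.2 (5 to 19).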
